A study of Homo sapiens with 6 samples.

Results

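The transcription factors of the NF-kappa-B family and the genes that regulate them were examined in a chromatin immunoprecipitation sequencing (ChIP-seq) study of the protein PAI-1. The set comprised 9 genes, chosen by name from the 20163 protein-coding genes annotated on chromosomes 1 to 22, X and Y: the subunit genes NFKB1, NFKB2, REL, RELA and RELB, the inhibitors NFKBIA and TNFAIP3, the receptor gene LTBR and the ubiquitin ligase gene BIRC3. Chromatin came from RT112 and UM-UC-3, both established human bladder cancer cell lines, and was precipitated with a monoclonal antibody against PAI-1 (clone 3F2). Each line contributed 2 libraries, labelled as biological replicates, and neither a treatment nor a genetic change is given for any of them; the 2 input libraries were not analysed here. The lists held 96423 and 60227 peaks in RT112 replicates 1 and 2, and 109287 and 114094 peaks in UM-UC-3 replicates 1 and 2, with a score for each peak. The sources used here do not define the score; from the tool and its range of values it was read as the negative log10 of a p or q value, on which a higher score is stronger evidence of enrichment. No read counts accompany the peaks, so the sequencing depth behind them is unknown, and a missing peak says only that none was called.

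NF-kappa-B proteins bind DNA as dimers of the 5 subunits. In resting cells the inhibitor I-kappa-B-alpha, encoded by NFKBIA, holds the dimers in the cytoplasm, and its degradation after signals such as tumour necrosis factor releases them to the nucleus. A second route runs from receptors such as the lymphotoxin beta receptor, encoded by LTBR. It passes through processing of the p100 precursor encoded by NFKB2 and leads to RELB-containing dimers. TNFAIP3 (A20) edits the ubiquitin chains that pass the signal on, and BIRC3 (cIAP2) is a ubiquitin ligase.

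The agreement between lists was measured first, because the results rest on it. A peak was called repeated when it shared at least 1 bp with a peak of the other replicate of its line. Of the overlapping peaks, 45.1% for RT112 and 69.3% for UM-UC-3 (as shares of the replicate 1 peaks) had both ends within 1 bp of the matching peak, against 2.25 to 3.61% of the peaks that overlapped a peak of the other line. Among the peaks of the 9 genes this held for 3 of 4 repeated RT112 peaks and for 7 of 10 from UM-UC-3. How far the replicates of a line are separate measurements is not shown by the lists, so SDs and repeats within a line may understate the spread between separate cultures. Scores also took few values, and the 5 commonest scores covered 64.4 to 65.4% of every list. The median score of all peaks was 3.8 and 4.09 in RT112 replicates 1 and 2, and 3.88 and 3.85 in those of UM-UC-3.

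PAI-1 peaks were found in or within 10 kb of 6 of the 9 genes in at least 1 library and of 3 in none, where 14.2% of all protein-coding genes had none. No gene of the 9 had a peak within 3 kb of its annotated gene start in both replicates of either line. Few genes did (4.12% of all genes in RT112 and 9.15% for UM-UC-3). The lists held 14, 8, 11 and 16 such peaks in RT112 replicates 1 and 2 and UM-UC-3 replicates 1 and 2, or 49 in all, at 18 distinct places in RT112 and 17 for UM-UC-3. NFKB1 held most of the peaks in UM-UC-3, whereas NFKB2, RELA and LTBR had none in any library.

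**Figure D1:**
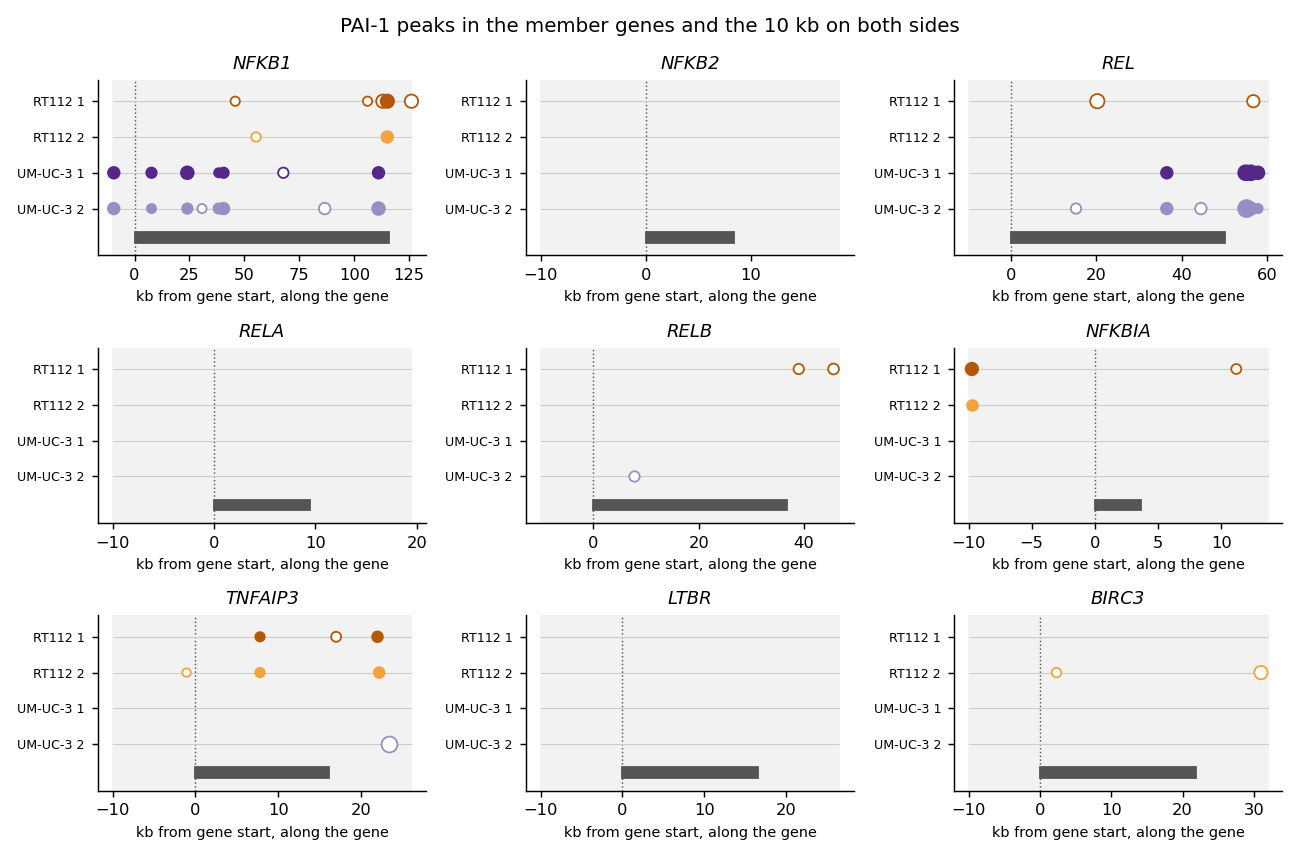
Position of every PAI-1 peak in the 9 genes and the 10 kb on both sides (grey area), in kb from the annotated gene start along the direction of transcription, with 1 line for each library (1 and 2 are the replicates). The dark bar is the gene, filled circles are peaks repeated in the other replicate, open circles are not repeated, and circles grow with the score. NFKB1 has 6 repeated peaks in UM-UC-3, and NFKB2, RELA and LTBR have no circle in any library.

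A window of the gene plus 10 kb on both sides held a peak for 5 of 9 genes in RT112 replicate 1, where the same was true of 65.9% of all protein-coding genes. This was so for 4 of 9 in RT112 replicate 2 (54.7% of all genes), for 2 of 9 in UM-UC-3 replicate 1 (70.9%) and for 4 of 9 in UM-UC-3 replicate 2 (71.8%). Long genes collect more peaks, so each gene was also set beside the 200 protein-coding genes nearest to it in length. Among those, the mean share with a peak was 59.1, 46.9, 65.7 and 66.9% in the same order of libraries, which would correspond to 5.31, 4.22, 5.92 and 6.03 of 9 genes. The RT112 counts were thus close to those of genes of like length, and the UM-UC-3 counts were lower.

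In both replicates of RT112 a peak was present for 3 genes, NFKB1, NFKBIA and TNFAIP3, where 50.2% of all genes had one in both. In both replicates of UM-UC-3 it was present for 2 genes, NFKB1 and REL, where 65.7% of all genes did. Genes of like length would have given 3.72 and 5.34 of 9. Leaving out a replicate raises the first count to 4 or 5 and the second to at most 4, because RELB, REL, BIRC3 or TNFAIP3 had peaks in 1 library of a line only. No peak was called in any library for 3 genes, against 14.2% of all genes and 1.43 of 9 by genes of like length.

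Summed over the 9 windows, the density was 3.05 and 1.74 peaks per 100 kb in RT112 replicates 1 and 2, a mean of 2.40 ± 0.924 (SD, n = 2). It was 2.40 and 3.49 in the UM-UC-3 replicates, a mean of 2.94 ± 0.77 (SD, n = 2). Over all gene windows the values were 3.12, 1.94, 3.53 and 3.71 peaks per 100 kb, each above the value of the 9 genes in the same library. Against genes of like length the order was another: these would have given 12.8, 7.71, 14.2 and 14.8 peaks, and the 14, 8, 11 and 16 peaks found were more in 3 libraries and fewer in UM-UC-3 replicate 1. The median rank of the 9 genes among genes of like length was the 55.0th, 35.8th, 24.5th and 26.8th percentile in the 4 libraries. A gene without a peak takes the middle rank of all genes without one, so these medians largely reflect how many members had none.

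**Figure D2:**
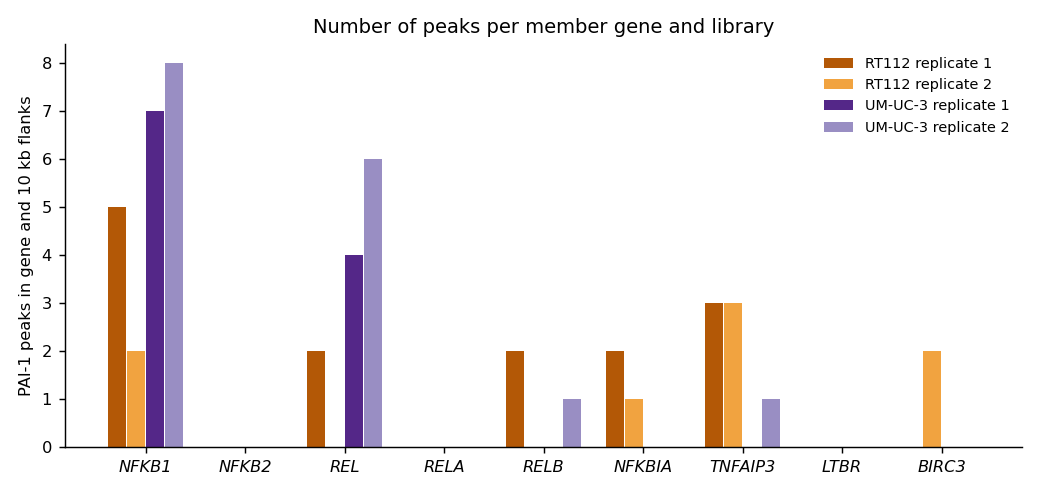
Number of PAI-1 peaks in each gene and its 10 kb flanks, with 1 bar for each library. NFKB1 has 5, 2, 7 and 8 peaks and REL has 2, 0, 4 and 6 in RT112 replicates 1 and 2 and UM-UC-3 replicates 1 and 2, while NFKBIA has peaks in RT112 alone.

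NFKB1 encodes p105, the precursor of the DNA-binding subunit p50, and was the longest gene of the set (116 kb, chromosome 4, positions 103422487 to 103538459 on the plus strand). It had 5 and 2 peaks in RT112 replicates 1 and 2 and 7 and 8 in UM-UC-3 replicates 1 and 2, so both UM-UC-3 libraries held more than both RT112 libraries. This depended on weak peaks: the difference in density (UM-UC-3 minus RT112) was 2.94 peaks per 100 kb with all peaks, 1.1 with scores of at least 5 and 0.735 with the same number of best peaks from every library, in both of which the libraries overlapped, and it reversed to -1.1 with the top 25% by score. The RT112 density was 2.57 ± 1.56 peaks per 100 kb, that of UM-UC-3 5.52 ± 0.52 (SD, n = 2 each; two-sided p = 0.33 by the exact permutation test, the least that 2 against 2 libraries allow). Among genes of like length these counts ranked at the 63.0th and 46.0th percentile for RT112, against the 82.0th and 85.0th for UM-UC-3.

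The repeated peaks of NFKB1 lay at different places in the lines. RT112 had 1 repeated peak, at the other end of the gene from the start, across the end of the coding sequence and the 3' UTR in exon 24 of 24 (chr4:103537589-103537843, scores 7.43 and 5.29 in replicates 1 and 2). UM-UC-3 had 6 repeated peaks, at -9.45 kb, upstream of the start, and at 7.7, 24, 38.3, 40.5 and 111 kb into the gene. The outermost of these overlapped coding exon 21 (scores 5.19 and 6.57), and 4 were intronic. The UM-UC-3 peak closest to the start was in intron 1 (chr4:103430079-103430297, scores 3.88 and 2.63), and its ends were the same in both replicates. Its sequence on the GRCh37 plus strand is shown because it is the repeated peak nearest to the NFKB1 start; none of its 24-base stretches occurred again in the genome, so no letter is in capitals:
NFKB1 intron 1 peak: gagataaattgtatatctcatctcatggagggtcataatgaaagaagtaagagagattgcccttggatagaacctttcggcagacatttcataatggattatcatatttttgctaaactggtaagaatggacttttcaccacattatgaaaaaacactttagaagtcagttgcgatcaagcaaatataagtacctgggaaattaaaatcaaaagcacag

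The study designed a ChIP-PCR amplicon for NFKB1, and its place could be set beside the peaks. The primers are shown 5' to 3' because they fix which part of the locus was assayed:
NFKB1 forward primer: aaagacacatccggacctcg
NFKB1 reverse primer: tgtaagagttcccctccggt
Within the gene and its surroundings on GRCh37 they matched 1 place, chr4:103423128-103423245, a product of 118 bp in intron 1, 641 to 758 bp downstream of the gene start. The nearest peak was 22.3 kb away in both RT112 libraries and 6.83 kb away in both UM-UC-3 libraries, the intron 1 peak printed above. No peak was therefore called at the amplicon in any of the 4 lists.

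REL encodes c-Rel, a subunit prominent in lymphoid cells (chromosome 2, positions 61108626 to 61158747 on the plus strand, 50.1 kb). Its window held 2 and 0 peaks in RT112 replicates 1 and 2 but 4 and 6 in those of UM-UC-3, again more in both UM-UC-3 libraries. Without the flanks, or with flanks of 3 kb, the groups overlapped: inside the gene itself the counts were 1, 0, 1 and 3, so the contrast at REL rests on the downstream peaks. The RT112 density was 1.43 ± 2.02 peaks per 100 kb, that of UM-UC-3 7.13 ± 2.02 (SD, n = 2 each; two-sided p = 0.33 by the exact permutation test). The UM-UC-3 counts ranked at the 84.5th and 95.0th percentile among genes of like length, and the RT112 counts at the 55.0th and 16.5th.

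Of the 4 repeated REL peaks in UM-UC-3, 1 was inside the gene, in intron 5 at 36.5 kb from the start (chr2:61145019-61145258 in replicate 1, scores 5.19 and 5.16). The other 3 lay past the end of the gene, between 4.92 and 7.82 kb downstream, and included the highest score of the whole set (9.65 in replicate 1 and 12.86 in replicate 2). In replicate 2 that peak, and in both replicates the peak next to it, overlapped the processed pseudogene NONOP2. The ends of these 3 downstream peaks differed between replicates by 298, 124 and 63 bp, so they were outside the 1 bp agreement seen elsewhere. In RT112 replicate 1 a peak over another processed pseudogene, RPS12P3, was 320 bp from the nearest UM-UC-3 peak, the shortest distance between peaks of the lines in the set. In that peak 42.5% of the 24-base stretches occurred again in the genome, against at most 6.2% in the UM-UC-3 peaks of REL. The intron 5 peak is shown on the plus strand because it is the repeated peak closest to the REL start, with no recurring 24-base stretch:
REL intron 5 peak: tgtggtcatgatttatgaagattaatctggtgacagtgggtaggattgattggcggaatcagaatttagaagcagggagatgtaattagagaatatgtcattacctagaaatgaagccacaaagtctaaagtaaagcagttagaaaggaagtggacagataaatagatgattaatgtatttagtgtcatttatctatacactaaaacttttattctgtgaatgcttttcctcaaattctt

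RELB encodes the partner subunit of the second route (chromosome 19, positions 45504719 to 45541450, 36.7 kb). It had 2, 0, 0 and 1 peaks in RT112 replicates 1 and 2 and UM-UC-3 replicates 1 and 2, and none was repeated. Both RT112 peaks lay inside the downstream neighbour CLASRP, at scores of 3.8 and 4.28. The UM-UC-3 peak was in intron 2 at 7.71 kb from the start (score 3.88), and 88.6% of its 24-base stretches occurred again in the genome. The groups overlapped: RT112 averaged 1 ± 1.41 peaks, UM-UC-3 0.5 ± 0.707 (SD, n = 2 each).

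NFKB2, which encodes the precursor p100 (chromosome 10, positions 104153867 to 104162281), and RELA, which encodes the p65 subunit, which carries a transactivation domain (chromosome 11, positions 65421070 to 65430561, minus strand), had 0 peaks in every library. The nearest peak to NFKB2 was 67.1 kb away in both RT112 libraries and 35.9 kb away in both UM-UC-3 libraries, and all 4 were repeated. For RELA the nearest peaks were 31.3 and 22.5 kb away in RT112 replicates 1 and 2, which were not repeated, and 49.8 kb away in both UM-UC-3 libraries. Both genes are short, at 8.41 and 9.49 kb, and 28.5 to 51.0% of genes of the length of NFKB2 had a peak, depending on the library, with 34.5 to 48.5% for RELA. For these 2 genes an empty window was therefore the state of about as many or more genes of their length.

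NFKBIA encodes I-kappa-B-alpha (chromosome 14, positions 35870285 to 35873955 on the minus strand, 3.67 kb). RT112 replicates 1 and 2 had 2 and 1 peaks there while each UM-UC-3 library had 0, so the groups did not overlap in the opposite direction to NFKB1 and REL. The density was 6.34 ± 2.99 peaks per 100 kb in RT112 (SD, n = 2; two-sided p = 0.33 by the exact permutation test). The RT112 counts ranked at the 89.0th and 83.0th percentile of genes of like length, and the nearest peak in UM-UC-3 was 11.3 kb away in both replicates, just outside the 10 kb limit and repeated. The repeated RT112 peak lay upstream, at -9.74 kb from the start and just inside that limit (scores 6.31 and 4.27 in replicates 1 and 2), so the contrast at NFKBIA rests on where the limit falls. With a 3 kb limit no library had a peak there.

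TNFAIP3 encodes A20, a ubiquitin-editing enzyme that dampens NF-kappa-B signalling (chromosome 6, positions 138188351 to 138204451 on the plus strand, 16.1 kb). It had 3 peaks in each RT112 library but 0 and 1 in replicates 1 and 2 of UM-UC-3, which for RT112 is 8.31 ± 0 peaks per 100 kb and for UM-UC-3 is 1.39 ± 1.96 (SD, n = 2 each; two-sided p = 0.33 by the exact permutation test). Within each RT112 library TNFAIP3 ranked highest of the set among genes of like length, at the 93.0th and 98.0th percentile. Of the RT112 peaks, 2 in each replicate were repeated: 1 overlapped coding exon 3 at 7.81 kb (scores 2.76 and 2.97), and 1 lay 5.94 and 6.1 kb past the gene end (4.15 and 4.27). Both exon 3 scores were below the median score of their lists, 3.8 and 4.09. In the downstream peak 75.2 and 71.5% of the 24-base stretches occurred again in the genome. The exon 3 peak had no recurring stretch and is shown as the repeated peak nearest to the TNFAIP3 start (chr6:138196040-138196282, plus strand, the 133 coding bases in capitals):
TNFAIP3 exon 3 peak: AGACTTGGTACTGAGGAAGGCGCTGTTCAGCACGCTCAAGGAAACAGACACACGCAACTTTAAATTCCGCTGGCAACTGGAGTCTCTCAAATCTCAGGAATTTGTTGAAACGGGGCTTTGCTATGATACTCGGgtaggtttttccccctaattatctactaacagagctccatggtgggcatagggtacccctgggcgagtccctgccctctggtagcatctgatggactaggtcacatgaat
The scores at TNFAIP3 ran against the counts. The single UM-UC-3 peak, in replicate 2 and 7.26 kb past the gene end, scored 11.2, above every RT112 peak of the gene, but it was not repeated and 86.7% of its 24-base stretches occurred again. When only peaks with a score of at least 5 were kept, the density difference at TNFAIP3 (UM-UC-3 minus RT112) turned from negative to 1.39 peaks per 100 kb.

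LTBR, the lymphotoxin beta receptor gene (chromosome 12, positions 6484211 to 6500737 on the plus strand, 16.5 kb), had 0 peaks in every library. The nearest peak was 19.0 kb away in both RT112 libraries, and 25.3 and 17.7 kb away in UM-UC-3 replicates 1 and 2. Among genes of like length, 53.0, 35.0, 65.5 and 66.0% had a peak in the 4 libraries. The study designed a ChIP-PCR amplicon for this gene too:
LTBR forward primer: cttccctcggctgggc
LTBR reverse primer: cctcccttcttcggaagcc
The product of 66 bp was placed at chr12:6493103-6493168. The annotated gene span opens with a transcript that begins far upstream, so the amplicon lay 8.89 kb inside the span but at -225 to -160 bp from the start of the canonical transcript. The nearest peak to it was 27.9 kb away in both RT112 libraries, 32.9 kb in UM-UC-3 replicate 1 and 25.3 kb in replicate 2. As for NFKB1, no list held a peak at the assayed site.

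BIRC3 encodes cIAP2, a ubiquitin ligase and a known target of NF-kappa-B (chromosome 11, positions 102188215 to 102210134 on the plus strand, 21.9 kb). It had 2 peaks in RT112 replicate 2 and 0 in the other 3 libraries. A peak in intron 1 at 2.33 kb from the start scored 2.97. The other, at a score of 7.41, lay 9.1 kb past the end, in the neighbouring gene BIRC2, and neither was repeated.

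Within 3 kb of the annotated start, 0 of the 9 genes had a peak in both RT112 replicates, where 4.12% of all genes did, and 0 had one in both UM-UC-3 replicates, where 9.15% did. At shares of that size, genes of like length would have given 0.46 and 0.75 of 9, so an absence from these 9 starts is not set apart from the background. At least 1 library had such a peak for 2 genes, TNFAIP3 and BIRC3, against 24.5% of all genes. Both were in RT112 replicate 2: the BIRC3 peak in intron 1, and a TNFAIP3 peak at -1.06 kb, upstream of the start and inside the lncRNA gene WAKMAR2, with a score of 2.00, the bottom of the list. The starts of the canonical transcripts gave the same 2 peaks and no other. Other annotated transcripts of NFKB1 and REL start inside these genes, and repeated UM-UC-3 peaks lay near some of those starts. In replicate 1 the midpoints of the NFKB1 peaks at 111, 38.3 and 24 kb were 301, 1989 and 2785 bp from one. The midpoint of the REL intron 5 peak was 818 bp from one. The share over all genes was not counted for such starts.

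**Figure D3:**
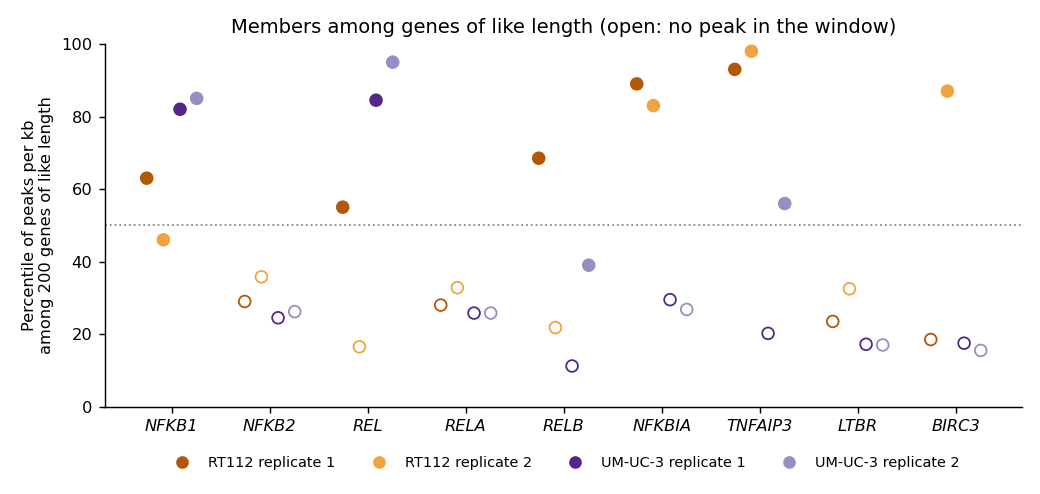
Percentile of each gene's peaks per kb among the 200 protein-coding genes nearest in length (vertical axis, 0 to 100), with 1 circle for each library and open circles where the gene had no peak. The dotted line is the 50th percentile. NFKB1 and REL sit above it in both UM-UC-3 libraries, NFKBIA and TNFAIP3 in both RT112 libraries, and NFKB2, RELA and LTBR below it in all 4.

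The lines were compared gene by gene by asking whether the counts of their libraries overlapped. Both UM-UC-3 libraries had more peaks than both RT112 libraries at 2 of 9 genes (NFKB1 and REL), as did 30.8% of all genes. The reverse held for 2 of 9 (NFKBIA and TNFAIP3), against 9.62% of all genes. Since the UM-UC-3 lists are longer, counts were also scaled to each library's total in gene windows. The same 2 genes were then higher in UM-UC-3, with 27.2% of all genes, and the same 2 in RT112, with 22.9%, so the split over all genes moved with the scaling while that of the 9 did not. For every one of the 4 the exact permutation test, two-sided, gave p = 0.33, and for the other 5 genes it gave 1. With scaling, these counts lay close to the shares over all genes. With scores of at least 5, or the top 25% by score, only REL of the 4 had libraries that did not overlap, and with equal numbers of best peaks only REL and NFKBIA did.

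**Figure D4:**
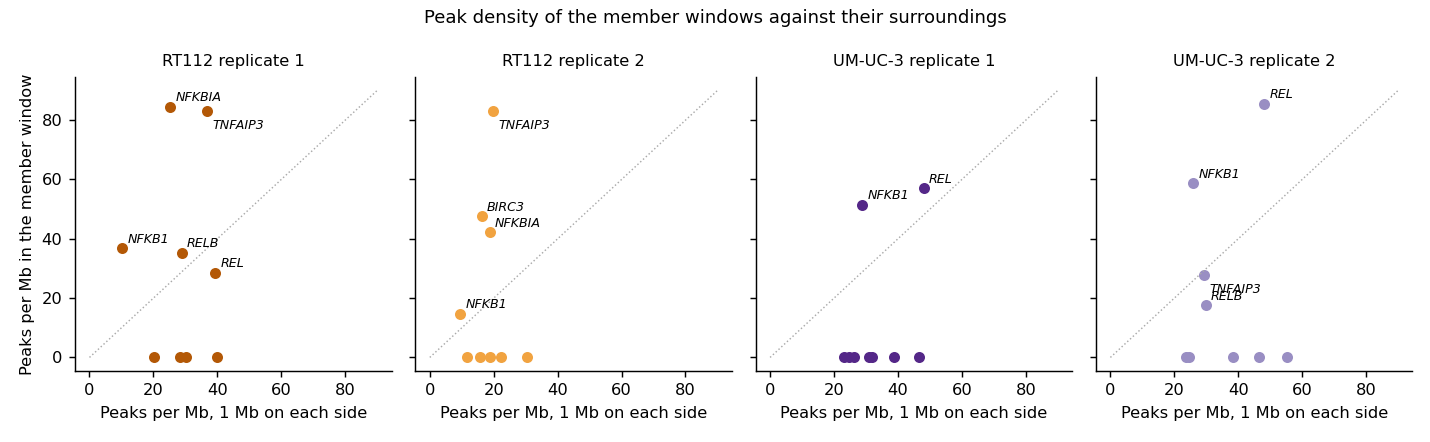
Peaks per Mb in the window of each gene (vertical axis) against peaks per Mb in the 1 Mb on each side of it (horizontal axis), with 1 panel for each library. The dotted line marks equal density and genes without a peak lie on the bottom edge. NFKB1 lies above the line in all 4 panels.

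The surroundings of the genes differed in peak density, and the window values were set beside them. NFKB1 had 36.8 and 14.7 peaks per Mb in RT112 replicates 1 and 2, where the flanking 1 Mb on each side had 10.1 and 9.6. In UM-UC-3 it had 51.5 and 58.8 against 28.8 and 25.8, so the flanks of NFKB1 also held more peaks in UM-UC-3 than in RT112. At NFKBIA the flanks held 25.3 and 18.7 peaks per Mb in the RT112 replicates, with 23.2 and 23.7 for those of UM-UC-3, and at TNFAIP3 they held 36.9, 19.7, 30.8 and 29.3. At REL the flanks held 39.4 and 18.7 in RT112 and 48.0 in both UM-UC-3 libraries. The part of the regional density in the NFKB1 and REL counts was not tested. LTBR had no peak although its flanks were among the densest, at 39.9, 30.3, 46.5 and 55.1 peaks per Mb.

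The share of repeated peaks was below that of all gene windows in both RT112 libraries, and above it in one UM-UC-3 library and below it in the other. In RT112 replicate 1, 4 of 14 peaks of the set were repeated (28.6%, against 38.2% of the peaks in all gene windows), and in replicate 2, 4 of 8 (50% against 61.4%). In UM-UC-3 replicate 1, 10 of 11 were repeated (90.9% against 74.6%), and in replicate 2, 10 of 16 (62.5% against 71.2%). The 2 shares averaged 39.3% in RT112 and 76.7% in UM-UC-3. Both shares of a line count the same overlaps, seen from each side. Their SDs, 15.2 and 20.1 in the same order, thus reflect how many peaks each replicate had and not a spread between replicates.

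No peak of the 9 genes was found at the same place in both lines. Of the peaks of the set, 0 of 14 in RT112 replicate 1 and 0 of 8 in replicate 2 overlapped a UM-UC-3 peak, where 7.06 and 7.55% of the peaks in all gene windows did. In UM-UC-3, 0 of 11 and 0 of 16 overlapped an RT112 peak, against 6.02 and 5.84%. With so few peaks, an overlap of none is near these low shares.

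Sites that fit the 10-base kappa-B consensus, the sequence NF-kappa-B dimers recognise, were looked for on both strands. None of the 49 peaks of the set held one. Of all peaks in the 4 lists 2.61, 2.60, 2.24 and 2.22% had one in their central 200 bases, so with 49 peaks a count of 0 is near these low shares. In the RefSeq promoters (250 bases before to 50 after each start, GRCh38.p14), 11.3% of 35116 promoters held a match. That share is per promoter, whereas a gene below counts by a match in any of its promoters. NFKB2 had 3 promoters, and NFKB1 and RELA had 2 each, so the units are not alike. Of the 9 genes 8 had a promoter in the table, all but RELB, and 6 had a match, at 11 distinct places: NFKB1, NFKB2, REL, NFKBIA, TNFAIP3 and BIRC3. These are genes known to be driven by NF-kappa-B itself. RELA and LTBR had no match in this window. One match from each is printed in its 30 bases of context on the GRCh37 plus strand, with the consensus in capitals, because the distance from these sites to the peaks is what the comparison turns on:
NFKB1: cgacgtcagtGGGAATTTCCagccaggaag
NFKB2: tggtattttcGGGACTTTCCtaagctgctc
REL: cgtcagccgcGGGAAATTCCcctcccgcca
NFKBIA: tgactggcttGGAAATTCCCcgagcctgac
TNFAIP3: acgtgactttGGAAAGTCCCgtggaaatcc
BIRC3: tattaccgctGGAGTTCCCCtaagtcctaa
The first 3 are at chr4:103422467-103422476, chr10:104155441-104155450 and chr2:61108662-61108671, and the others at chr14:35874027-35874036, chr6:138188329-138188338 and chr11:102188080-102188089. The REL and NFKB2 promoters also hold matches that overlap one another or read on both strands. From the NFKB1 site the nearest peak was 21.6 kb away in both RT112 libraries and 7.6 kb in both UM-UC-3 libraries. From the TNFAIP3 site it was 7.7 and 0.91 kb in RT112 replicates 1 and 2, and 38.1 and 23.3 kb in the UM-UC-3 replicates. From the BIRC3 site it was 2.34 kb in RT112 replicate 2 and 19.5 kb or more in the other libraries. No list placed a peak over a promoter site of these genes.

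Short stretches of DNA that recur in the genome were counted, because reads that lie wholly in repeated DNA cannot be placed with certainty. The sequenced reads were paired and longer than these stretches. A recurring stretch therefore does not by itself show that a read could not be placed, and the shares may overstate that doubt. In the 9 windows 19.0% of 24-base stretches occurred again in GRCh37. Of the 49 peaks 30 held no such stretch, and in 5 at least 50% of the stretches recurred. These 5 were the downstream TNFAIP3 peaks of both RT112 replicates and of UM-UC-3 replicate 2, the RELB intron 2 peak and the downstream NFKBIA peak of RT112 replicate 1. The part of recurring DNA in these 5 calls was not tested.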

How the data were processed

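PAI-1 ChIP-seq peak lists of RT112 and UM-UC-3 (2 libraries each) were analysed; groups came from the cell line in the labels. Per the submitters' processing notes, which give no order or settings, the tools were Trimmomatic, FastQC, Bowtie 1.1.1, Picard and MACS2 2.1.0.20140616 on hg19. The score column deposited by the authors was read as a −log10 value, from the tool and the range of the values; its definition (p or q) and how the inputs were used are not given in the sources used here.

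Peaks on chromosomes 1 to 22, X and Y were counted from 1, and lines with the same interval were counted once. A peak belonged to a gene of GENCODE 44 (lifted to GRCh37) when it shared at least 1 bp with the gene or the 10 kb on both sides. Percentiles are middle ranks of peaks per kb among the 200 protein-coding genes nearest in length. Lines were compared with the exact permutation test over libraries, whose p cannot go below 0.33 here, and by non-overlap of counts. Code was tested on simulated peaks. Python 3.11.15, numpy 2.4.6, pandas 2.3.3 and pysam 0.24.0 were used.

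The members and lists were chosen with earlier results of these data known. All 9 genes were named, with every peak within 3 kb of a start, the repeated peak closest to each start and that of highest score, and the nearest peak otherwise; of the wider pathway list, genes with a peak within 3 kb of the start in both replicates of a line were named. The measures of recurring DNA and of peak ends were chosen after the peaks had been seen. The sequence of 1 repeated peak is not reported here.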

Additional observations from a re-analysis of the deposited data

How the results depend on the processing

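With no read counts and 2 libraries a line, the depth limits of each list are unknown and no comparison of the lines could pass a test. Of 104 comparisons of a summary value with an alternative, 72 stayed within the spread of the replicates or within 1.5 times the count, and 32 moved. Part of the 72 was fixed in advance: densities and percentiles with 1 of 2 libraries left out stay within that spread by arithmetic. For the shares of repeated peaks the spread reflects only how many peaks each replicate had. The size of the window decided which genes counted. With the gene span alone or a 3 kb limit, 1 gene had more peaks in both UM-UC-3 libraries (NFKB1) and 1 in both RT112 libraries (TNFAIP3), and the median percentile in UM-UC-3 was 41.2 and 37.8. With a 50 kb limit, both RT112 lists had a peak at 8 genes, both UM-UC-3 lists at 9, 0 had more peaks in both RT112 libraries and the median percentile in UM-UC-3 was 36.0. At a score of at least 5, 1 gene (NFKB1) had a peak in both RT112 replicates, RT112 had 0.872 peaks per 100 kb, UM-UC-3 had 1.74 with a median percentile of 35.8, and 1 gene (REL) was higher in UM-UC-3 and 0 in RT112. With the top 25% by score, both RT112 lists had a peak at 0 genes, both UM-UC-3 lists at 1, 0% of the RT112 peaks were repeated, the density was 0.654 in each line, the median percentile in UM-UC-3 was 39.8, and again 1 gene was higher in UM-UC-3 and 0 in RT112. The difference in density (UM-UC-3 minus RT112) then reversed at NFKB1, to -1.1 peaks per 100 kb, and at TNFAIP3, to 1.39, the value it also took at a score of at least 5. The cause was not tested.

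The spans of protein-coding transcripts gave a median percentile of 27.8 in UM-UC-3, and genes of like length and GC gave 30.5. An alternative chosen after seeing the data kept the 60227 best peaks of each library, and gave 1.85 peaks per 100 kb and a median percentile of 33.8 in UM-UC-3, with 1 gene higher in UM-UC-3 (REL) and 1 in RT112 (NFKBIA). Leaving out each library in turn gave 4 to 5 genes with a peak in RT112 and 2 to 4 in UM-UC-3, 1.74 to 3.05 and 2.40 to 3.49 peaks per 100 kb, and median percentiles of 35.8 to 55.0 and 24.5 to 26.8. It gave 2 genes higher in UM-UC-3 each time and 2 to 3 higher in RT112, BIRC3 joining without RT112 replicate 1 and RELB without RT112 replicate 2. Leaving out a library can only add genes to these counts, so the genes called with all libraries had to stay. The replicate number was also taken as a block, that is, with differences taken within each number. Then 2 genes were higher in UM-UC-3 and 2 in RT112, the same genes as before. The block call is looser, so it too could only add genes. Same-numbered libraries deviated with a correlation of -0.016 over 20163 genes, so these counts showed no pairing by number. With 2 libraries a line, this cannot show that the libraries were unpaired.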

Other observations

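A wider list of 49 other genes of the NF-kappa-B pathway (kinases, inhibitors, receptors, adaptors, ligands and targets) was counted in the same way. Both RT112 replicates held a peak in the 10 kb window for 21 of them (42.9%, with a mean of 43.7% among genes of like length) and both UM-UC-3 replicates for 33 (67.3%, with 60.4%). Over all protein-coding genes the shares were 50.2 and 65.7%. For 4 of the 49 (8.16%) no library held a peak, against 14.2% of all genes.

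Within 3 kb of the start, 2 genes of the wider list carried a peak in each RT112 library and 4 in each UM-UC-3 library. These shares, 4.08 and 8.16%, were close to those over all genes, 4.12 and 9.15%, and the 6 genes are named as a description only. In RT112 these were TNFSF14, the gene of the LTBR ligand LIGHT (scores 5.68 and 4.09), and IL6, an inflammatory cytokine gene (7.43 and 4.09). In UM-UC-3 they were TNF (4.7 and 3.83), its neighbour LTB, which encodes a subunit of the other LTBR ligand (3.41 and 3.07), TNFSF11, the gene of RANKL (3.75 and 2.55), and TAB2, an adaptor gene of the TAK1 kinase complex (2.64 and 2.63). The 10 kb windows of TNF and LTB overlap, so their counts in those windows are not separate. Their start peaks in UM-UC-3 replicate 2 were different peaks, with 1 at each gene and unlike scores. BIRC2 is in the wider list and holds the downstream BIRC3 peak of RT112 replicate 2 (score 7.41). That peak was therefore counted both for the 9 genes and for the wider list. More peaks in both UM-UC-3 libraries than in both RT112 libraries were found for 10 genes of the 49 (20.4%, against 30.8% of all genes), and the reverse for 4 (8.16%, against 9.62%). After scaling to each library's total in gene windows the counts were 9 (18.4%, against 27.2%) and 13 (26.5%, against 22.9%).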
